A study of Mus musculus with 10 samples.

Results

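The 4 mammalian Hox gene clusters were examined for acetylation of histone H4 (H4Ac) and for binding of the myogenic factors MyoD and Myf5. Their members are the listed peaks that overlapped 1 of 4 windows of the mouse build mm9: HoxA (chr6:52090000-52235000, 145 kb), HoxB (chr11:96040000-96240000, 200 kb), HoxC (chr15:102730000-102880000, 150 kb) and HoxD (chr2:74480000-74620000, 140 kb). The windows were set by position, not by signal, and held 253 of the 241128 peaks in 7 deposited lists. They were drawn around 38 Hox genes, 10 in HoxA (Hoxa2 to Hoxa13), 10 in HoxB (Hoxb1 to Hoxb13), 9 in HoxC (Hoxc4 to Hoxc13) and 9 in HoxD (Hoxd1 to Hoxd13).

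Hox genes encode homeodomain transcription factors that set positional identity along the body axis. Within a cluster they lie in order: genes of low number are used early and towards the head, genes of high number late and towards the tail or the tip of a limb, and cultured fibroblasts keep a Hox pattern that reflects where in the body they arose. Among the members, Hoxa2 patterns the second pharyngeal arch, Hoxb1 marks the fourth rhombomere of the hindbrain, Hoxa3 is needed for the thymus and parathyroid, Hoxa5 acts in the lung and the cervical to upper thoracic trunk, Hoxc8 and Hoxc9 in the thoracic trunk, Hoxa11 and Hoxd11 in the forearm, and Hoxa13 and Hoxd13 in the digits. The basic helix-loop-helix factors MyoD and Myf5 direct cells to skeletal muscle and bind the E-box, CANNTG. Acetylated histone H4 is a mark of open, active chromatin.

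All cells were mouse embryonic fibroblasts of the genotype MyoD-/-; Myf5-/-. They carried a lentivirus for MyoD, for Myf5 or, as the control, for green fluorescent protein (GFP), so each factor was supplied by a transgene in cells that lack the endogenous MyoD and Myf5. Cells were infected with polybrene at 8 µg/ml, received fresh medium after 12 h, and at 24 h were switched to differentiation medium, in which they stayed for 20 h until harvest. There was 1 list for each of 7 groups: MyoD binding in MyoD cells, Myf5 binding in Myf5 cells, H4Ac in GFP, MyoD and Myf5 cells, and mock precipitations with either factor antibody in GFP cells. Each factor list covers 2 replicates by its title; no list has a replicate of its own, so no difference below has a replicate error or a p-value. The fibroblasts' site of origin in the embryo is not given in the sources used here.

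The numbers of listed peaks ranged from 31120 to 36864 for H4Ac and were 45015 for MyoD and 93787 for Myf5. Neither mock list, of 942 and 1359 peaks, had a peak in any Hox window. Each peak carries the authors' maximum read coverage and the coverage cutoff of its GC class (19 to 31 reads in the H4Ac lists). No scaling of coverage to depth is named and the depth is unknown, so coverage was used only to describe or rank peaks within their own list, and values of several lists set side by side are not a comparison of amounts.

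Peaks were not placed on single genes, because the gene table used here is of another build (GRCm38.p6); it served only for the order of the genes, which put the low-numbered genes at the start of the HoxA window and at the end of the other 3. Promoter sequences in RefSeq (GRCm38.p6) matched 22 of the 38 genes with 24 promoters. In HoxB these were only Hoxb1, Hoxb4 and Hoxb8 and in HoxC only Hoxc4, so those clusters were little covered. The E-box CANNTG, which reads the same on both strands, occurred within 250 bases upstream of the start in 17 of 24 (70.8%), against 66.2% of 32851 promoters in the table. Its form CAGCTG, a core that MyoD and Myf5 bind well, occurred in 3 of 24 (12.5%, against 13.0%), and the form CACCTG, on either strand (CAGGTG), in 0 of 24 (against 17.2%). The 3 promoters with CAGCTG were those of Hoxa3, Hoxa5 and Hoxa6, all in HoxA (chr6:52213068-52213317, chr6:52204588-52204837 and chr6:52208673-52208922 of GRCm38.p6). They are shown because no other matched member's promoter held that form, 5′ to 3′ on the minus strand, with every E-box in capitals.
Hoxa3: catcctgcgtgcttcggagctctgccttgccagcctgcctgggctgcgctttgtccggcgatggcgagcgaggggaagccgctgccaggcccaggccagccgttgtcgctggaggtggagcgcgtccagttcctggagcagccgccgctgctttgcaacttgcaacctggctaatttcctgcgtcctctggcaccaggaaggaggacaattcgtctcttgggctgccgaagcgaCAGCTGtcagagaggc
Hoxa5: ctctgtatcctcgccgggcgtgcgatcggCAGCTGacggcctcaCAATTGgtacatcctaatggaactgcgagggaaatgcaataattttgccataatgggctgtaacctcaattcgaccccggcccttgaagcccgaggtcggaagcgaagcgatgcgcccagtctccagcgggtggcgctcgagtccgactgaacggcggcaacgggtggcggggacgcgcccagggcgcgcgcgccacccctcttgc
Hoxa6: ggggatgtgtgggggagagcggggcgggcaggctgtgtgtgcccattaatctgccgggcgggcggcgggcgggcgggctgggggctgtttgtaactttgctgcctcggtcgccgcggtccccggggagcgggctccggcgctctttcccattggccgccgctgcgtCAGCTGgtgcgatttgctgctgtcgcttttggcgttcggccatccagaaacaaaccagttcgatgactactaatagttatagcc
Such a match is a description of the letters, not a bound site, and the HoxA peaks reported below were not placed on these promoters. The members' promoters had a median GC content of 58.6%, against 52.4% over the table.

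H4Ac was listed in all 4 clusters in every population, already in the GFP cells that lack both factors. GFP cells had 48 H4Ac peaks in the windows (11 in HoxA, 14 in HoxB, 11 in HoxC, 12 in HoxD), MyoD cells 62 (10, 18, 21 and 13) and Myf5 cells 43 (8, 14, 13 and 8). Per megabase that was 75.6 peaks with GFP, 97.6 with MyoD and 67.7 with Myf5, or 6.41, 6.98 and 5.57 times the density of each whole list. By length the order was another: the peaks covered 22.824 kb with GFP, 24.541 kb with MyoD and 26.036 kb with Myf5. That was 7.27, 8.40 and 7.27 times the share of length covered by each whole list. Of 64 steps of 10 kb in the windows, 21 (32.8%) held an H4Ac peak with GFP, 22 (34.4%) with MyoD and 19 (29.7%) with Myf5, against 7.40%, 8.02% and 7.80% of all such steps. Counting any population it was 27 of 64 (42.2%, against 10.1%). Flanks of the same length on both sides of each window, 1270 kb in all, held 22, 27 and 22 H4Ac peaks, fewer peaks over a greater length. The peaks were not tall: their median coverage over cutoff was 1.22 with GFP, 1.27 with MyoD and 1.33 with Myf5, below the whole lists' 1.42, 1.37 and 1.38. They were also richer in GC, with 37.5%, 38.7% and 34.9% of peaks over 50% GC, against 15.6%, 14.3% and 11.9% in the lists. The part of GC content in the density was not tested.

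HoxC had the largest difference in H4Ac between populations. Its peaks numbered 11 with GFP, 21 with MyoD and 13 with Myf5, and they covered 4.965, 7.669 and 7.666 kb. Over the whole lists the covered length was 13032.8 kb with GFP, 12127.2 kb with MyoD and 14883.5 kb with Myf5, so HoxC was longer with MyoD while the list as a whole was shorter. Its density with MyoD was 140 peaks per megabase, 10.0 times that list's own and the highest of any cluster and population. MyoD peaks were narrower, with a median of 264 bp in the list, against 349 bp with GFP and 373 bp with Myf5. With peaks of 1 list within 500 bp joined, an alternative added after seeing the data, HoxC had 5 regions with GFP, 11 with MyoD and 8 with Myf5.

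The other clusters differed less between populations and in no common direction. HoxA covered 4.452, 3.947 and 4.414 kb with GFP, MyoD and Myf5. HoxB covered 7.679, 6.139 and 8.205 kb, so it was shorter with MyoD although it had 4 peaks more. HoxD covered 5.728, 6.786 and 5.751 kb, with 12, 13 and 8 peaks. With 1 list a population, none of these differences can be set against the spread between cultures.

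**Figure D1:**
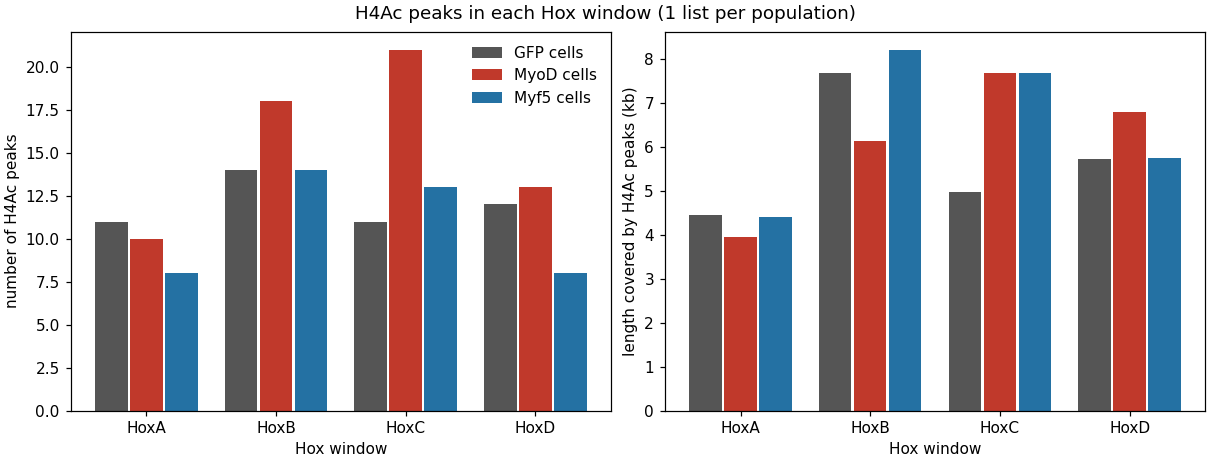
Number of H4Ac peaks (left) and length they cover in kb (right) in each Hox window, with 1 bar per cell population and no error bars, since each population has 1 list. HoxC had 11 peaks with GFP and 21 with MyoD, and its covered length was 4.965 kb with GFP, 7.669 kb with MyoD and 7.666 kb with Myf5.

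Along each window, most H4Ac lay on the low-number side of the midpoint. The peaks of the 3 populations merged into 69 regions, 39.238 kb in all. The centre was on the low-number side of the window's midpoint for 12 of 15 regions in HoxA, 20 of 22 in HoxB, 15 of 16 in HoxC and 13 of 16 in HoxD. By length, 77.1%, 93.6%, 98.4% and 89.5% of the acetylated sequence lay on that side. The same held in each population taken alone, with 65.1% to 71.3% in HoxA, 89.4% to 100% in HoxB, 98.0% to 100% in HoxC and 86.4% to 96.1% in HoxD. H4Ac did not start at the low-number end itself. Its first region began 18.4 kb from that end of the window in HoxA, 23.5 kb in HoxB, 8.5 kb in HoxC and 34.9 kb in HoxD. The midpoint is that of the window and not of a gene. The genes were not placed in the windows, so how many lie on either side of it is not known, and the part of their spacing in this split was not tested.

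The high-number end of every window had no listed H4Ac in any population. This stretch ran for 63.2 kb in HoxA (chr6:52171754-52235000), 81.2 kb in HoxB (chr11:96040000-96121191), 66.8 kb in HoxC (chr15:102730000-102796802) and 55.6 kb in HoxD (chr2:74480000-74535579). In HoxA it held no MyoD or Myf5 peak wholly inside, but the strongest pair of all windows, at chr6:52171404-52172271 for MyoD and chr6:52171394-52172476 for Myf5, reached across its border from the last acetylated region. In the other 3 it held, wholly inside, 4 Myf5 peaks (HoxB), 1 MyoD and 3 Myf5 peaks (HoxC) and 2 MyoD and 3 Myf5 peaks (HoxD). These peaks lack listed H4Ac by the way the stretch was defined. Over the whole lists, 21.6% of MyoD peaks and 16.5% of Myf5 peaks overlapped H4Ac of any population. In HoxB the stretch was longer where a factor was present, 131.4 kb with MyoD and 130.9 kb with Myf5, because 2 peaks on its border were listed with GFP alone. In HoxC it was longer with GFP, 99.2 kb, because the regions at chr15:102796803-102796956 and chr15:102812069-102812747 were listed only with a factor.

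**Figure D2:**
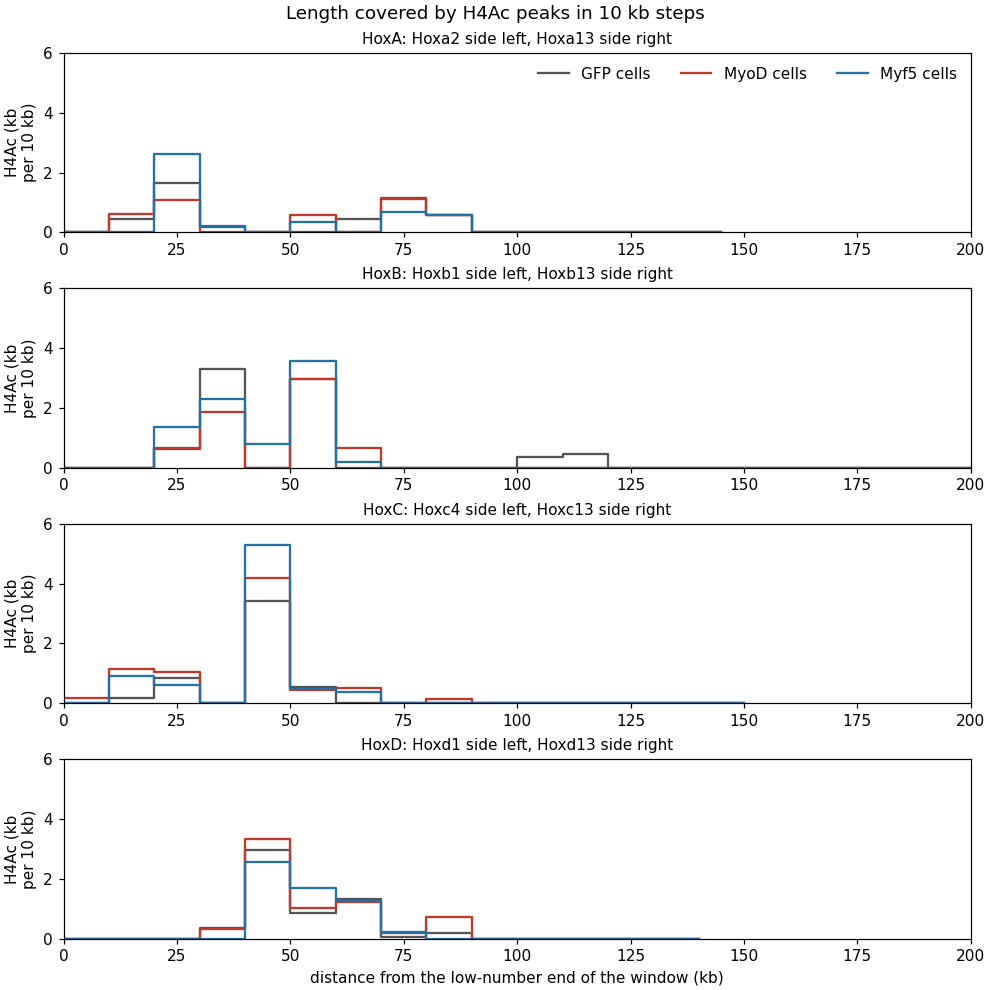
Length covered by H4Ac peaks (kb) in each 10 kb step, against distance from the low-number end of the window (kb), 1 panel per cluster and 1 line per population. All panels are drawn to 200 kb, but the windows end at 145 kb in HoxA, 150 kb in HoxC and 140 kb in HoxD, and nothing was counted beyond. Most of the covered length lies on the low-number side of each window's midpoint. The last 55.6 to 81.2 kb of each window holds no H4Ac in any population.

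H4Ac came in short runs of peaks, most of them on the low-number side. HoxA had a run of 8 regions over 14.2 kb (chr6:52108426-52122611) and a run of 3 over 4.8 kb (chr6:52166919-52171753). The second lay past the midpoint, held all 3 HoxA regions of the high-number side, and was listed in all populations throughout. HoxB had runs of 8 regions over 7.9 kb (chr11:96181831-96189748) and 8 over 17.3 kb (chr11:96199210-96216484). HoxC held a run of 8 regions over 9.6 kb (chr15:102829176-102838744), of which H4Ac covered 66.5%, the highest share among the runs of 3 or more regions, and 6 of the 8 were listed in all populations. H4Ac covered 3.969 kb of that run with GFP, 4.632 kb with MyoD and 5.773 kb with Myf5. HoxD had a run of 9 regions over 17.5 kb (chr2:74561243-74578724) and, around the midpoint, a run of 4 over 4.3 kb (chr2:74549557-74553890).

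Of the 69 merged regions, 27 (39.1%, exact 95% interval 27.6 to 51.6) were listed in all 3 populations, close to the 40.8% of all merged regions in the genome. Such intervals reflect counting error alone, and peaks that neighbour each other are not independent. A further 11 regions were listed with GFP alone (15.9%, beside 10.5% of all merged regions), 13 with MyoD alone (18.8%, beside 14.0%) and 6 with Myf5 alone (8.70%, beside 13.7%). Another 7 were listed with MyoD and Myf5 (10.1%, beside 8.30%), 4 with GFP and MyoD (5.80%, beside 7.89%) and 1 with GFP and Myf5 (1.45%, beside 4.79%). The exact interval of each of these shares took in the share of all merged regions. HoxC differed from the other clusters in its pattern: 9 of its 16 regions were common, 4 were MyoD alone, 3 were MyoD and Myf5, and none was listed with GFP and missing with a factor. HoxA had 5 of 15 in common, HoxB 7 of 22 and HoxD 6 of 16.

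The strongest H4Ac regions of each cluster were common to all populations, with 1 exception in HoxA and 1 in HoxD. In HoxA the region at chr6:52171175-52171753 had a coverage of 90 with GFP, 81 with MyoD and 81 with Myf5, and that at chr6:52118398-52119131 had 66, 48 and 48. The first is the last acetylated region before the empty high-number end, and it overlapped the strongest MyoD and Myf5 peaks of all windows. The HoxA exception, at chr6:52108426-52108888, had 79 with GFP, 2.82 times its cutoff, and 41 with MyoD, and was not listed with Myf5. In HoxB the region at chr11:96209735-96210187 had 63, 108 and 71, and reached 4.91 times its cutoff with MyoD, with no factor peak on it. It was followed by chr11:96204640-96206312, with 56, 43 and 47, and chr11:96183700-96185268, with 41, 31 and 48. In HoxC, neighbouring regions at chr15:102830863-102831956 (104, 89 and 85) and chr15:102829960-102830715 (101, 68 and 74) were the strongest. In HoxD, where the highest coverage was 1.91 times its cutoff, chr2:74572391-74573885 had 47, 42 and 39 and chr2:74569962-74571258 had 29, 42 and 38. HoxD also held chr2:74552003-74552970, with 28, 38 and 43, at a Myf5 peak of coverage 257, and chr2:74568313-74569632, with 28, 35 and 41. The HoxD exception, chr2:74549946-74550401, had 42 with GFP and was not listed with either factor.

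**Figure D3:**
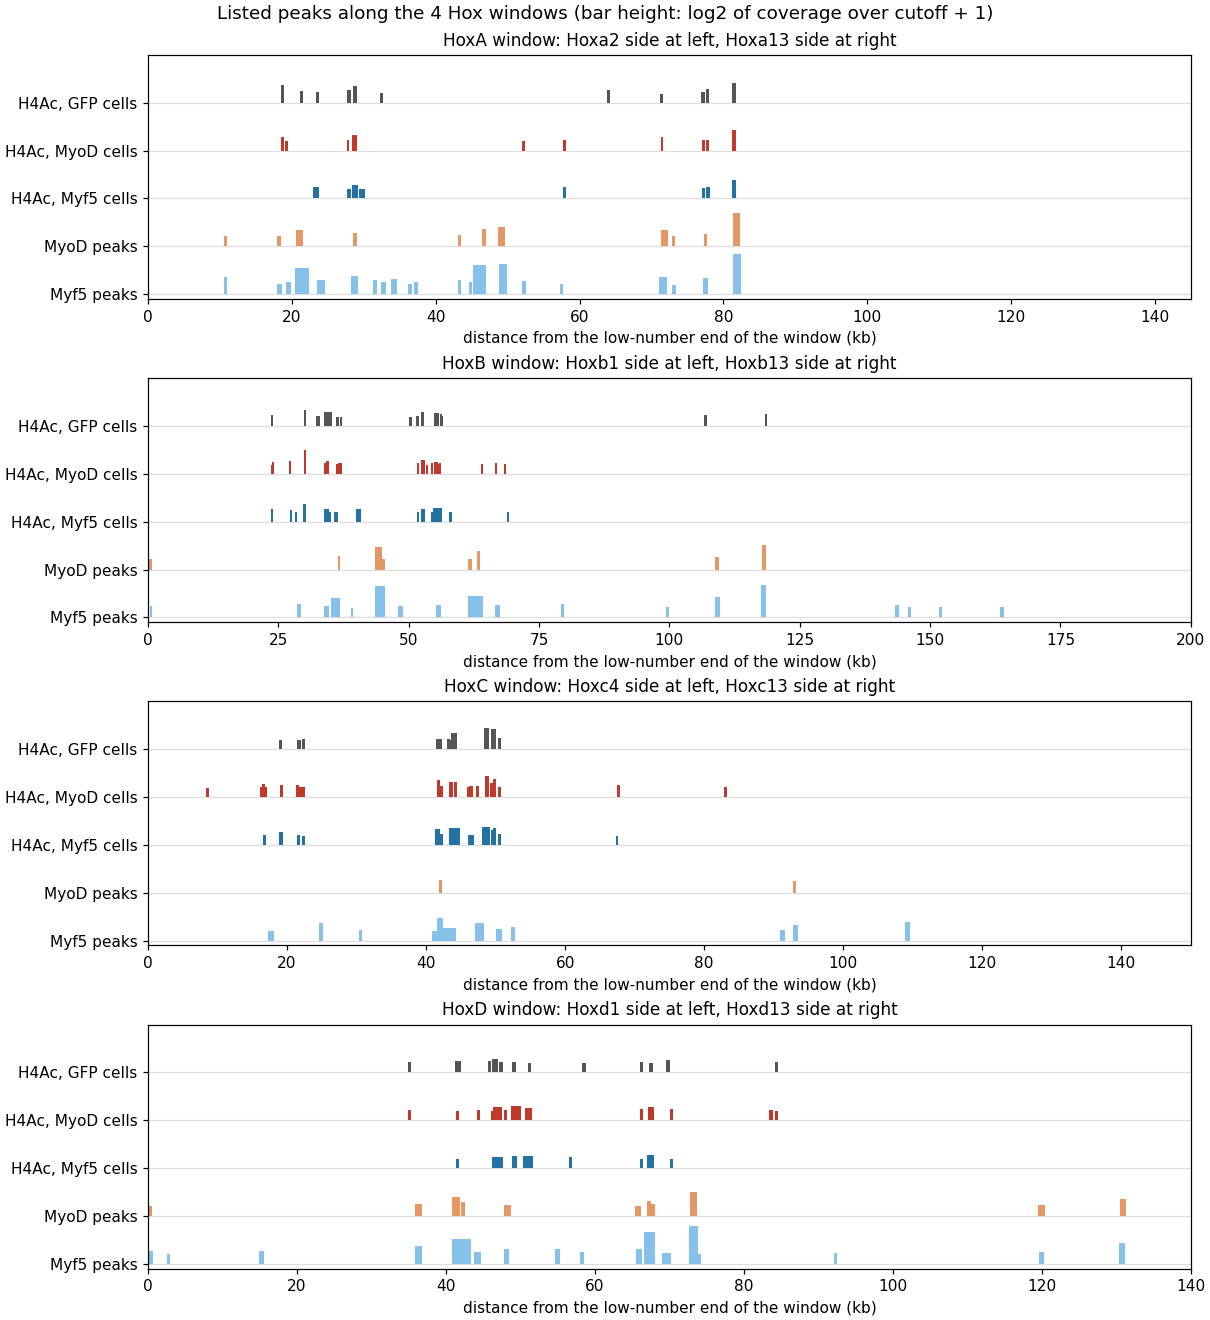
Listed peaks along each Hox window, against distance from the low-number end (kb, with its own scale in each panel), with 1 track for H4Ac in each population and 1 for each factor. Bar width is peak width, except that narrow peaks are widened to a fixed minimum, so differences in width among them are not seen. Bar height follows the log2 of coverage over cutoff plus 1. Most H4Ac lies left of the middle of each panel, but not at its left edge: in HoxD it starts 34.9 kb from that edge. MyoD and Myf5 peaks also lie where no H4Ac is drawn.

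H4Ac peaks listed with a factor but overlapping no GFP peak are called gained, and GFP peaks overlapping none with the factor are called lost. Both comparisons share the GFP list, so their values are given side by side only. With MyoD, 22 of 62 peaks in the windows were gained (35.5%, 23.7 to 48.7), beside 30.7% of the whole list, and 12 of 48 were lost (25.0%, 13.6 to 39.6), beside 23.9%. With Myf5, 13 of 43 were gained (30.2%, 17.2 to 46.1), beside 31.9%, and 16 of 48 were lost (33.3%, 20.4 to 48.4), beside 27.2%. All 4 shares were near their background. Gained peaks were weak: their median coverage over cutoff was 1.15 with MyoD and 1.10 with Myf5, against 1.39 and 1.48 for retained peaks, and only 2 of 22 and 1 of 13 reached 1.5 times the cutoff. Cutoffs were lower in the MyoD list (19 to 26 reads) than in the GFP list (21 to 30). Of the 22 peaks gained with MyoD, 10 had a coverage, in unscaled reads, below the GFP cutoff of their GC class, beside 48.0% in the whole list. With Myf5 it was 0 of 13, beside 6.92% in the whole list. The part of this difference in the gain was not tested.

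By cluster, MyoD cells gained 3 of 10 peaks in HoxA, 6 of 18 in HoxB, 9 of 21 in HoxC and 4 of 13 in HoxD, and lost 4, 5, 0 and 3. Myf5 cells gained 2 of 8, 6 of 14, 3 of 13 and 2 of 8, and lost 5, 6, 0 and 5. HoxC lost none of its 11 GFP peaks with either factor, which allows a lost share of up to 28.5% by the exact interval and so includes the whole lists' 23.9% and 27.2%. Of the 9 HoxC peaks gained with MyoD, 4 were below the GFP cutoff of their GC class.

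The regions listed with both factors and not with GFP lay in all clusters. In HoxC they were chr15:102812069-102812747, with a coverage of 35 with MyoD and 29 with Myf5, chr15:102833141-102834077, with 28 and 30, and chr15:102862944-102863452, with 37 and 28. In HoxB, chr11:96212359-96212817 had 41 and 43 and chr11:96185275-96185784 had 27 and 29. HoxD had chr2:74549557-74549780, with 31 and 28, and HoxA had chr6:52147705-52148041, with 24 and 32. Only the last of these 7 overlapped a factor peak, a Myf5 peak of coverage 33. Of all 45627 merged regions, 13136 overlapped a MyoD peak and 21123 a Myf5 peak, so many regions elsewhere had none either, and the difference was not tested.

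The 13 regions of MyoD cells alone had coverages from 22 to 31, at 1.00 to 1.27 times their cutoffs. They were chr6:52109191-52109344 and chr6:52142015-52142334 in HoxA. HoxB had chr11:96171442-96171684, chr11:96173116-96173302, chr11:96175889-96176117 and chr11:96186378-96186773. In HoxC they were chr15:102796803-102796956, chr15:102832532-102832724, chr15:102863605-102863837 and chr15:102871371-102871545. HoxD had chr2:74536079-74536638, chr2:74571939-74572171 and chr2:74575546-74575833. All 13 were thus close to the limit of listing.

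Among the 6 regions of Myf5 cells alone, chr11:96199210-96200049 in HoxB was the strongest, with a coverage of 41 over 840 bp and no factor peak. HoxB also had chr11:96170894-96171080 (27), chr11:96181831-96182157 (32) and chr11:96211430-96211754 (30). HoxA had chr6:52119360-52120204 (31) and HoxD chr2:74563084-74563458 (36). None of these 6 overlapped a MyoD or Myf5 peak, beside 13136 and 21123 of all 45627 merged regions that did, and the difference was not tested.

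The 11 regions of GFP cells alone were in HoxA, HoxB and HoxD. The strongest was chr6:52153823-52154279 in HoxA, with a coverage of 46, followed by the HoxD exception above, with 42, and chr11:96132906-96133258 in HoxB, with 40. HoxA also had chr6:52111209-52111463 (36) and chr6:52122420-52122611 (29). HoxB had chr11:96121192-96121649 (36), chr11:96183423-96183670 (28), chr11:96189560-96189748 (26) and chr11:96207102-96207728 (29). HoxD had chr2:74561243-74561765 (28) and chr2:74573912-74574353 (38). Of these 11 regions, 2 overlapped a MyoD peak and 5 a Myf5 peak, beside 13136 and 21123 of all 45627 merged regions, and the difference was not tested. The 2 at a MyoD peak were chr6:52111209-52111463 (MyoD coverage 67, Myf5 163) and chr11:96121192-96121649 (MyoD 148, Myf5 271). At both, H4Ac of GFP cells was only 1.38 times its cutoff. That no H4Ac was listed there with a factor follows from the choice of regions of GFP cells alone.

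The 5 remaining regions were listed with GFP and 1 factor. With MyoD these were the HoxA exception above and chr6:52161304-52161649, where coverage was 28 with GFP and 45 with MyoD, at a MyoD peak of 67 and a Myf5 peak of 73. HoxD added chr2:74535580-74535767, with 34 and 27, and chr2:74584664-74585087, with 31 and 25. With Myf5 it was chr6:52112999-52113716 in HoxA, with 31 with GFP and 39 with Myf5.

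MyoD had 32 peaks in the windows (11 in HoxA, 8 in HoxB, 2 in HoxC, 11 in HoxD) and Myf5 had 68 (21, 18, 12 and 17). Steps of 10 kb held a MyoD peak in 21 of 64 (32.8%), against 14.6% of the genome, and a Myf5 peak in 38 of 64 (59.4%), against 26.1%. The density was 2.95 and 3.01 times that of the lists. HoxC was the exception for MyoD: its density there was 0.781 times that of the list, against 4.44 in HoxA, 2.34 in HoxB and 4.60 in HoxD, while for Myf5 it was 2.25 in HoxC and 2.53 to 4.07 in the others. HoxC also had the most H4Ac peaks gained with MyoD (9 of 21), of which 4 were below the GFP cutoff of their GC class. A relation between these counts was not tested. The low-number side held 8 of 11 MyoD peaks in HoxA, 6 of 8 in HoxB, 1 of 2 in HoxC and 8 of 11 in HoxD, and 18 of 21, 12 of 18, 9 of 12 and 12 of 17 Myf5 peaks. For Myf5 that share was above the share of merged H4Ac regions in HoxA (85.7% beside 80%) and below it in HoxB (66.7% beside 90.9%), HoxC (75% beside 93.75%) and HoxD (70.6% beside 81.25%), and these differences were not tested. GC content over 50% was found in 40.6% of the MyoD peaks and 36.8% of the Myf5 peaks, against 16.5% and 14.9% of the lists.

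Every MyoD peak in the windows overlapped a Myf5 peak (32 of 32, 89.1 to 100%, beside 97.5% of the list). In return, 28 of 68 Myf5 peaks overlapped a MyoD peak (41.2%, 29.4 to 53.8, beside 45.9%), 11 of 21 in HoxA, 6 of 18 in HoxB, 2 of 12 in HoxC and 9 of 17 in HoxD. The centres of a pair lay a median of 94.5 bp apart. Myf5 peaks with a MyoD partner had a median coverage of 85, and those without had 40.5 and at most 79. Most Hox peaks were of moderate height: the median was 43 for MyoD (49 in its list) and 45.5 for Myf5 (55).

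The strongest pair in HoxA stood above all others in the windows. Its MyoD peak, chr6:52171404-52172271, had a coverage of 289 and ranked 1108 of 45015, and its Myf5 partner had 518 and ranked 1836 of 93787. H4Ac was listed there in all populations. The next MyoD peaks of HoxA were chr6:52138627-52139590 (87, Myf5 239), chr6:52136372-52137045 (69, Myf5 211), chr6:52110528-52111522 (67, Myf5 163) and chr6:52161372-52162242 (67, Myf5 73). The fifth Myf5 peak of HoxA by coverage, chr6:52118249-52119213 (79), covered a MyoD peak of 49 and an acetylated region common to all populations. The first 2 of these lay in a 19.4 kb stretch without H4Ac in any population (chr6:52122612-52142014).

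In HoxB, the strongest MyoD peaks were chr11:96121547-96122233 (148, Myf5 271), chr11:96195204-96196475 (121, Myf5 270), chr11:96176414-96176921 (82, Myf5 112), chr11:96203167-96203656 (47, Myf5 91) and chr11:96130484-96131190 (43, Myf5 100). The second had no H4Ac in any population, although the HoxB runs of H4Ac lay on both sides of it. In HoxC the only MyoD peaks were chr15:102837763-102838123 (43, Myf5 120), at regions acetylated in all populations, and chr15:102786847-102787255 (39, Myf5 65), with none. Beyond these, the strongest Myf5 peaks of HoxC had no MyoD partner: chr15:102770385-102771139 (79), chr15:102831731-102832934 (76) and chr15:102854799-102855456 (73).

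In HoxD, the strongest MyoD peak was chr2:74546262-74547252 (137, Myf5 428), without H4Ac in any population. It was followed by chr2:74578169-74579193 (82, Myf5 146), with H4Ac in all, chr2:74488742-74489510 (72, Myf5 105), with none, chr2:74552453-74552967 (55, Myf5 257), with H4Ac in all, and chr2:74577395-74577997 (50, within the same Myf5 peak of 146). The fifth Myf5 peak there, chr2:74583189-74584215 (79, MyoD 43), had no H4Ac. Height of binding and the presence of H4Ac did not go together in a simple way, as the plot of paired coverages shows.

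**Figure D4:**
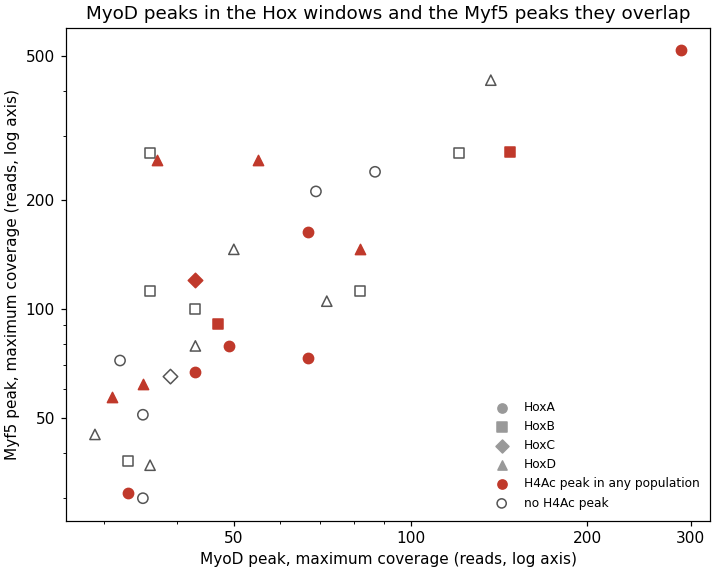
Maximum coverage (reads, log axes) of each MyoD peak in the Hox windows and of the Myf5 peak it overlaps, 32 pairs. Marker shape gives the cluster, and filled markers have an H4Ac peak at the MyoD peak in any population: the top pair (289 and 518) is filled, while the pair of 137 and 428 is open.

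Counting all listed H4Ac peaks, more factor peaks in the windows had H4Ac than elsewhere, also in the cells without the factor. Of 32 MyoD peaks, 13 overlapped H4Ac of GFP cells (40.6%, 23.7 to 59.4, beside 14.4% of the list), 11 that of MyoD cells (34.4%, 18.6 to 53.2, beside 18.6%) and 9 that of Myf5 cells (28.1%, 13.7 to 46.7, beside 15.1%). Of 68 Myf5 peaks, 21 overlapped H4Ac of GFP cells (30.9%, 20.2 to 43.3, beside 11.6%), 21 that of MyoD cells (beside 13.6%) and 16 that of Myf5 cells (23.5%, 14.1 to 35.4, beside 11.9%). H4Ac was itself denser in the windows than in the lists, at 6.41 times with GFP, 6.98 with MyoD and 5.57 with Myf5. The order of the populations differed: MyoD cells had the highest density, and GFP cells the highest share for MyoD peaks. The part of H4Ac density in these shares was not tested. Of the Myf5 peaks, 12 of 68 had H4Ac in all populations (17.6%, beside 8.67%). For MyoD peaks, the interval reached down to the background with H4Ac of MyoD and of Myf5 cells. An overlap of at least 50% of the shorter peak lowered the MyoD share to 25.0% with GFP cells (11.5 to 43.4, beside 12.1%) and 18.75% with Myf5 cells (7.21 to 36.4, beside 12.4%), and both intervals then took in the background. With H4Ac peaks that reached 1.5 times their cutoff, the MyoD shares were 12.5% with GFP cells (beside 8.77%), 21.9% with MyoD cells (beside 10.7%) and 15.6% with Myf5 cells (beside 8.57%). The Myf5 shares were then 13.2% (6.23 to 23.6, beside 6.92%), 11.8% (5.22 to 21.9, beside 7.80%) and 13.2% (6.23 to 23.6, beside 6.71%). In this setting every interval took in the background.

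Seen from the H4Ac side, peaks gained in the Hox windows mostly lay away from the factor. Of 22 peaks gained with MyoD, 1 overlapped a MyoD peak (4.55%, 0.115 to 22.8), beside 36.7% of gained peaks in the whole list. Of the 40 retained peaks, 12 did (30.0%, 16.6 to 46.5), beside 29.7%. The 1 gained peak at MyoD was in HoxD, chr2:74571939-74572171. Of 13 peaks gained with Myf5, 1 overlapped a Myf5 peak (7.69%, 0.195 to 36.0, beside 35.4%), and of 30 retained peaks 16 did (53.3%, beside 50.2%). Of the peaks gained with MyoD, 7 of 22 overlapped a Myf5 peak (31.8%, beside 50.8%), against 21 of 40 retained peaks (52.5%, beside 50.1%) and 28 of all 62 (45.2%, beside 50.3%).

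This low share depended on how gained peaks were defined. When both H4Ac lists were first limited to peaks of at least 1.5 times their cutoff, 4 of 8 gained peaks overlapped a MyoD peak (50%, 15.7 to 84.3, beside 45.8% in the whole list). Peaks of that height count as gained there even where a weaker GFP peak lies beneath them. When only the gained peaks were so limited, 0 of 2 lay at MyoD, beside 64.8%. With peaks within 500 bp counted as overlapping, the share was 1 of 16 for MyoD (beside 48.6%) and 4 of 10 for Myf5 (beside 43.8%). With neighbouring peaks joined it was 0 of 14 for MyoD (up to 23.2%, beside 37.7%).

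Of the 12 peaks lost with MyoD, 2 were at a MyoD peak (16.7%, 2.09 to 48.4, beside 16.2%) and 6 at a Myf5 peak (50%, 21.1 to 78.9, beside 33.7%). Of the 16 lost with Myf5, 4 were at a MyoD peak (25%, 7.27 to 52.4, beside 23.6%) and 7 at a Myf5 peak (43.75%, 19.8 to 70.1, beside 42.0%). All 4 intervals took in their background.

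**Figure D5:**
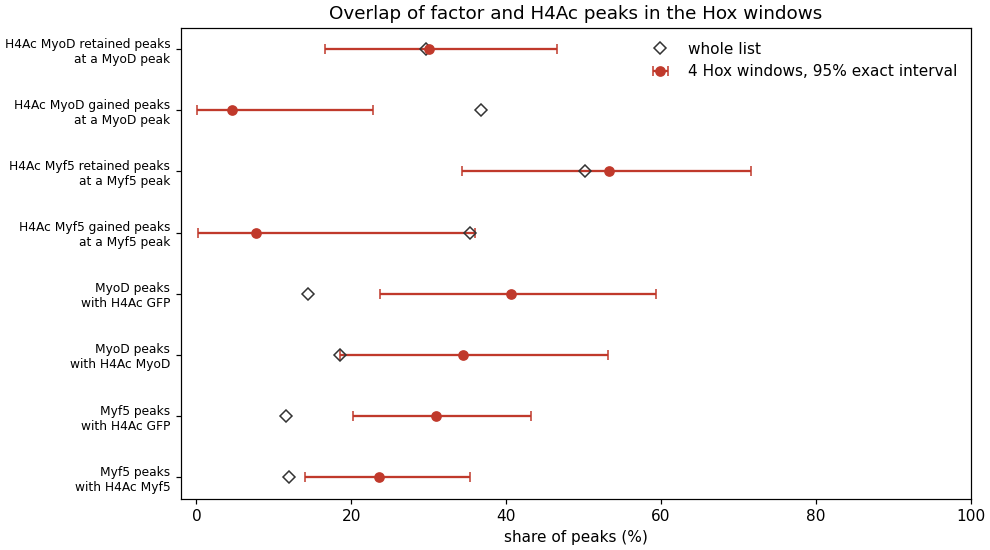
Share of peaks (%) in the 4 Hox windows that overlap the named partner, as points with exact 95% binomial intervals, beside the share in the whole list (open diamonds). Gained peaks at MyoD (4.55%) lie below their list's 36.7%, and factor peaks with H4Ac of GFP cells lie above theirs.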

How the data were processed

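Per the labels' protocols, MyoD and Myf5 precipitations used sonicated chromatin fixed for 11 min, whereas H4Ac precipitations used unfixed chromatin digested with micrococcal nuclease (15 units, 18 min). The submitters' processing notes list CASAVA 1.8.2, BWA 0.7.5, mm9 and hg19; the peak caller is not given in the sources used here. Per the file headers, the deposited signal is the authors' maximum coverage per peak, with a coverage cutoff by GC class. The authors' p-value per peak was used only through their listing of the peak. The deposited control coverage, another column of the authors, had 1 missing value and was used for no result.

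An overlap means 1 shared bp or more. Shares have exact Clopper-Pearson intervals at a level of 0.95. Densities use the sum over 20 chromosomes of the last listed peak end (2637.2 Mb). Runs join merged regions up to 5 kb apart. Named positions are, per cluster, the 5 strongest peaks of a factor list (MyoD peaks with their Myf5 partners, and in HoxC the strongest Myf5 peaks), the 2 strongest H4Ac peaks per population and the regions listed in 1 or 2 populations. Overlap code, tested on simulated data (lists of 5000 peaks), returned 3 planted shares with an error of 0 percentage points. Alternatives were an overlap of 50% of the shorter peak, a distance of 500 bp, H4Ac peaks of at least 1.5 times their cutoff, equal list lengths, windows shortened by 10 kb or extended by 50 kb, and removal of mock regions; joining peaks within 500 bp was added after seeing the data. The windows, genes and comparisons were chosen with earlier results of these data known. The 3 input samples were not analysed here. Scripts ran in Python 3.11.15 (pandas 2.3.3, numpy 2.4.6, scipy 1.17.1; figures in matplotlib 3.10.9).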

Additional observations from a re-analysis of the deposited data

Results flagged for a closer look

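In HoxD the number of H4Ac peaks was 1 above that of GFP cells with MyoD and differed by -4 with Myf5, and in HoxB the length covered by H4Ac differed from that of GFP cells by -1.54 kb with MyoD and by 0.526 kb with Myf5. Both stand here because the value was above that of the shared GFP cells with 1 factor and below it with the other. The HoxD contrast depended on how peaks were split. With peaks of 1 list within 500 bp joined, HoxD had 10 regions with GFP, 10 with MyoD and 8 with Myf5. Its covered length was 5.728, 6.786 and 5.751 kb. Each flagged result rests on 1 list per population, and the difference was not tested.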

How the results depend on the processing

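Under 8 settings for 26 results, 15 values moved past their margin. The margin was a factor of 1.5 for a count and the main result's own exact interval for a share. Such intervals are wide at these small numbers, so a value within its margin is not shown to be stable. None moved past it with equal list lengths or with windows shortened by 10 kb or extended by 50 kb. The extended windows still took the MyoD peaks from 32 to 45. Removal of mock regions could change nothing, since no mock peak lay in a window. With an overlap of 50% of the shorter peak, the share of peaks gained with Myf5 at a Myf5 peak was 0, and with a distance of 500 bp it was 40%. The 50% overlap also lowered the share of MyoD peaks with H4Ac from 40.6% to 25.0% with GFP cells and from 28.1% to 18.75% with Myf5 cells. With H4Ac peaks of at least 1.5 times their cutoff, the windows held 15 peaks with GFP, 20 with MyoD and 16 with Myf5, and the share of peaks gained with MyoD at a MyoD peak was 50%. In that setting the low-number side held 100% of regions in HoxB, 100% in HoxC and 100% in HoxD, and 71.4% in HoxA, below its 80%. H4Ac of GFP cells was then found at 12.5% of MyoD peaks, and H4Ac of GFP, MyoD and Myf5 cells at 13.2%, 11.8% and 13.2% of Myf5 peaks. With peaks within 500 bp joined, MyoD cells had 38 H4Ac regions, and 0 of those gained lay at a MyoD peak. The cause of these moves was not tested. No paired analysis was possible because each group has 1 list. The depth is unknown, so a position without a listed peak is one below the authors' cutoff, not one shown to lack the signal.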
